A study of Rattus norvegicus with 12 samples.

Results

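This comparison set rat small hepatocytes on laminin-511 (group LN511, 3 arrays) against the same kind of cells on Matrigel (group Mat, 3 arrays), which is 6 of the 12 arrays of the series. The arrays were chosen by the coating in their titles, and all 17899 genes with a usable signal were compared. The series measured RNA from small hepatocytes and from freshly isolated mature hepatocytes (MH) on single-colour Agilent arrays, with laminin-111 (LN111) as the remaining coating. Mature hepatocytes enter no test here.

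The cells of both groups came from livers of F344 rats (a strain the labels give as DPPIV+), were sorted for CD44 on day 9 and were collected at passage 2, 3 h after being passaged onto the coated dishes. Both groups had the same serum-free DMEM/F12 medium with bovine serum albumin, dexamethasone, insulin-transferrin-selenium, ascorbic acid-2 phosphate, 10 mM nicotinamide and 10 ng/mL EGF. The growth factor was thus present on both coatings. Whether replicates stand for different rats or dishes is not given in the labels; each p-value therefore speaks only of the spread among these 6 arrays, and that spread can be technical. They were bulk samples, in which fewer cells of a type and less RNA per cell cannot be told apart.

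Laminins are cross-shaped trimers of an alpha, a beta and a gamma chain that form the basement membrane network. Laminin-511 holds the alpha-5, beta-1 and gamma-1 chains and is bound by integrins alpha-3 beta-1 and alpha-6 beta-1, by integrin alpha-6 beta-4, and by the alpha-5 receptor Bcam. Matrigel is an extract of a mouse tumour that consists mainly of laminin-111, collagen IV, nidogen and heparan sulfate proteoglycan, so it is a mixture and not a single matrix protein. Small hepatocytes are CD44-positive progenitor cells of the adult liver that can form hepatocytes and express keratins of the biliary type.

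The share of spots well above background was 52.18% to 62.75% over the 12 arrays, with no saturated spot. The signal's 75th percentile was 1130 to 1370 on the LN511 arrays and 1920 to 3090 on the Mat arrays, and each value below is a log2 signal minus the log2 of that percentile on its own array. A level of 0 is thus the 75th percentile, and differences are log2 differences, LN511 minus Mat, with the standard error of the limma fit. The median difference of all genes was 0.12, and it was 0.25 with another background correction (normexp), -0.03 with quantile scaling and -0.98 with no scaling. Leaving out the scaling lowers every difference by the same 1.10, so each higher gene below with a difference under 1.10 was below 0 in unscaled signals. Mat replicates 1 and 2 lay on another slide than Mat replicate 3 and the 3 LN511 arrays. Mat replicates 1 and 3 lay closer together than any other pair of arrays: over 4677 bright genes the standard deviation of their difference was 0.133, against 0.277 for the next closest pair, 0.305 for the next closest pair within a group, and 0.618 and 0.645 for the other Mat pairs. Whether these 2 arrays hold the same RNA cannot be told from the labels. They were counted as separate samples, as the labels have them. If they are 1 sample, Mat has n = 2, and counts with the pair averaged are given beside the main ones. Of 10 small hepatocyte markers checked, 10 (Cd44, Krt7, Krt8, Krt18, Krt19, Sox9, Epcam, Afp, Alb and Hnf4a) were well above background on all arrays of both groups, with a summed signal of 336 to 473 times the 75th percentile on LN511 and 211 to 293 times on Mat.

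On LN511 11 of 30 matrix genes, among them collagens and the cross-linking enzymes Lox and Loxl2, were lower than on Mat, as were 5 of 16 stellate cell and fibroblast markers. Higher on LN511 were 13 of 35 immediate-early genes, 4 of 18 feedback inhibitors of MAP kinases, 4 of 14 EGF family and receptor genes and 6 of 19 interferon-stimulated genes. By limma with Benjamini-Hochberg adjustment, 1472 genes passed (8.22% of those tested), of which 1265 were higher on LN511 (7.07%) and 207 lower (1.16%), at an adjusted p under 0.05, and of these 873 and 169 differed at least 2-fold. The genes whose 3 LN511 arrays all lay above all 3 Mat arrays numbered 4354 (24.3%), and those whose arrays all lay below numbered 1410 (7.88%). With the replicate number as a block, 1789 genes were higher (9.99%) and 597 lower (3.34%). Same-numbered LN511 and Mat arrays deviated together for replicates 1 and 2 (correlations 0.59 and 0.76) but little for replicate 3 (0.16). Whether the numbers mark a shared batch is not given in the labels. With Mat replicates 1 and 3 averaged as 1 sample, 789 genes passed, 732 higher and 57 lower. With the slide as a block, the difference rests on Mat replicate 3 alone, and 131 genes passed (0.732%), 121 higher (0.676%) and 10 lower (0.0559%). The median of the 1265 higher genes was 1.38 over the 3 Mat arrays and 1.30 against Mat replicate 3, and that of the 207 lower genes -1.68 and -1.82. Mat replicate 3 took part in calling them, so these medians are a description.

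Of 30 interstitial and basement membrane matrix genes tested, 11 were lower on LN511 and 0 higher, with a list median of -1.97 against 0.12 over all genes. Col1a1, the alpha-1 chain of fibrillar collagen I, stood at 2.80, 0.07 and 1.04 on the LN511 arrays (replicates 1, 2 and 3) and at 4.27, 3.88 and 4.40 on the Mat arrays. Its difference was -2.88 ± 0.61 (limma adjusted p = 0.0277), and every LN511 array lay below every Mat array. Its partner chain Col1a2 fell by 2.90 (adjusted p = 0.0277 in limma). Col3a1, fibrillar collagen III, stood at 0.05, -3.56 and -2.0 on LN511 and at 2.59, 0.79 and 2.47 on Mat (difference -3.79 ± 0.91, limma adjusted p = 0.0426). Replicate 2 was the lowest array of both groups for this gene, and the groups did not overlap. Col15a1, a collagen linked to basement membranes, stood at -1.30, -3.14 and -1.53 on LN511 and at 1.59, 0.87 and 1.47 on Mat (-3.30 ± 0.59, limma adjusted p = 0.0141). Col6a3, a chain of microfibrillar collagen VI, fell by 3.52 ± 0.69 (limma adjusted p = 0.0205), and Col5a1, a chain of collagen V, by 2.0 ± 0.33 (limma adjusted p = 0.0106).

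Sparc, a collagen-binding matricellular protein, stood at 3.75, 2.63 and 3.03 on LN511 and at 5.30, 4.48 and 5.42 on Mat (-1.93 ± 0.38, limma adjusted p = 0.0203). The enzymes that cross-link collagen were lower as well: Lox by 2.69 (limma adjusted p = 0.0194) and Loxl2 by 2.71 (limma adjusted p = 0.0156). Nid1, nidogen, which links laminin to collagen IV, stood at -3.05, -4.87 and -3.76 on LN511 and at -1.04, -1.70 and -1.07 on Mat, without overlap (-2.62 ± 0.45, limma adjusted p = 0.0127). Postn, periostin, was not well above background on the LN511 arrays and was at least 1.14-fold lower (measured difference -2.30, limma adjusted p = 0.00475). Its measured difference was 0.10 under normexp. Fn1, fibronectin, went against the others of the list with 5.13, 5.70 and 5.53 on LN511 and 4.92, 5.09 and 4.95 on Mat, but did not pass (0.47 ± 0.23, limma adjusted p = 0.301).

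Tnn, the tenascin family member tenascin-N, had the largest decrease under the naming rule and was at -0.21, -3.72 and -2.41 on LN511 and at 2.68, 0.63 and 2.68 on Mat (-4.11 ± 0.95, limma adjusted p = 0.037). Others of the 15 largest decreases by the naming rule also code for extracellular proteins: Col5a3 (-3.46), Abi3bp (at least 3.03-fold lower), Podnl1 (at least 2.66-fold lower), Mgp, an inhibitor of calcification (-3.23), and Ccl11, the eosinophil chemokine eotaxin (at least 4.42-fold lower). The replicate spread on LN511 was wide for several of them, with replicate 1 the highest. The remaining 9 were Actg2, Twist1, Col3a1, Mrgprf, Col6a3, Wnt5a, Shcbp1l (at least 3.01-fold lower), Col15a1 and Runx2 (at least 3.51-fold lower).

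**Figure D1:**
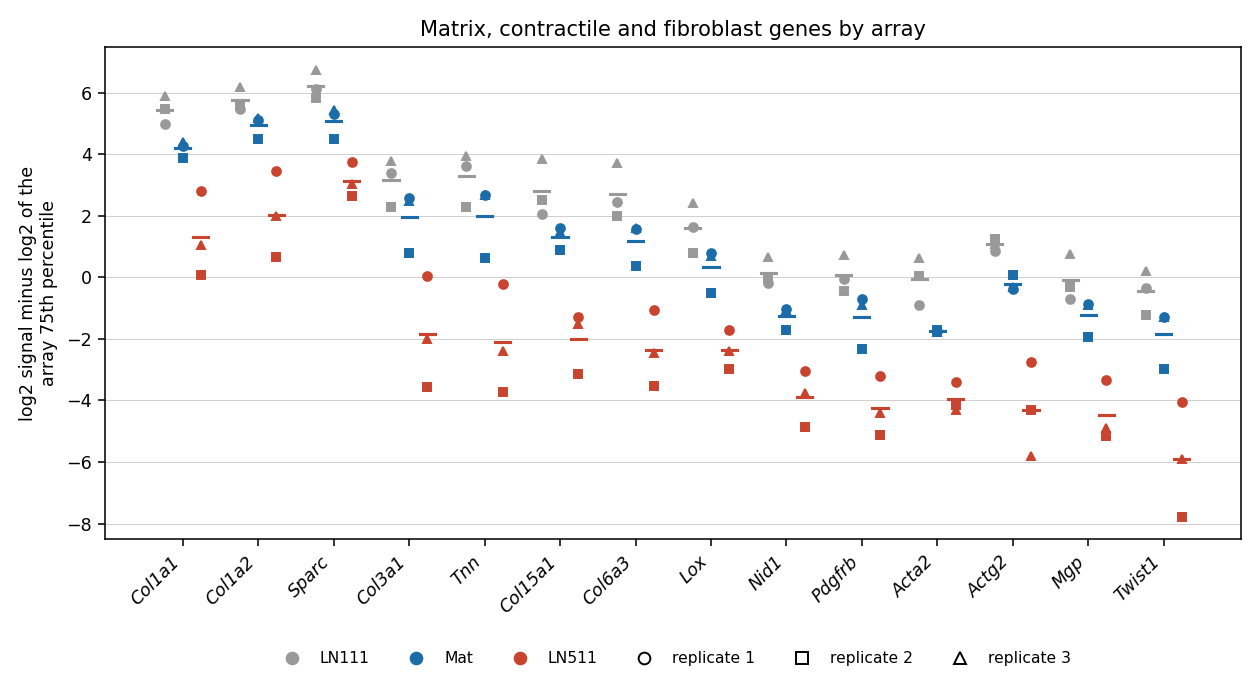
Level of 14 matrix, contractile and fibroblast genes on each array (log2 signal minus the log2 75th percentile of that array); symbols are replicates, colours are coatings and bars are means of 3 arrays. Each gene's 3 LN511 points lie below its 3 Mat points, and for Col3a1 the LN511 points run from -3.56 to 0.05.

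Of 38 genes of the actin and tubulin cytoskeleton, 4 were lower and 2 higher, and 28 lay above 0 (median 0.23). Over all genes 1.16% were lower and 7.07% higher, and 11626 of 17899 lay above 0 (median 0.12). The share of higher genes in the list was thus no greater than that of all genes. Acta2, smooth muscle actin, stood at -3.39, -4.15 and -4.30 on LN511 and at -1.75, -1.72 and -1.77 on Mat (-2.20 ± 0.39, limma adjusted p = 0.0133). Actg2, the enteric smooth muscle actin, stood at -2.75, -4.32 and -5.81 on LN511 and at -0.40, 0.09 and -0.31 on Mat (-4.09 ± 0.64, limma adjusted p = 0.00847). Actg2 is not in the list and was named as a large decrease. The groups overlapped for neither gene. Tpm2, a tropomyosin, fell by 3.10 (limma adjusted p = 0.0155), Myl9, a myosin light chain, by 2.48 (limma adjusted p = 0.00555) and Marcks, a membrane-bound actin cross-linker, by 0.93 (limma adjusted p = 0.0207). Within the list, Actg1, the cytoplasmic gamma actin, was higher, at 6.85, 6.65 and 6.86 on LN511 against 5.88, 5.61 and 6.06 on Mat (0.94 ± 0.18, limma adjusted p = 0.0194), but its unscaled difference was -0.16. Tmsb10, a thymosin that binds actin monomers, was higher by 0.77 (limma adjusted p = 0.0196; below 0 without scaling).

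Of 16 stellate cell and fibroblast markers tested, 5 were lower and 0 higher (median -2.03). Pdgfrb, the platelet-derived growth factor receptor of stellate cells, stood at -3.21, -5.12 and -4.39 on LN511 and at -0.69, -2.31 and -0.88 on Mat (-2.94 ± 0.59, limma adjusted p = 0.0225). The others were Acta2, Col1a1, Col1a2 and Col3a1, which the matrix and cytoskeletal lists also hold. Dcn, the proteoglycan decorin, had a difference of -2.15 ± 1.34 (limma adjusted p = 0.414), and the intermediate filament gene Des one of -1.99 ± 0.98 (limma adjusted p = 0.294). For both, Mat replicate 2 lay below the highest LN511 array, so the groups overlapped. With the replicate block their limma adjusted p was 0.0123 and 0.00569, and 10 of the 16 were then lower. Lrat, which makes the retinyl esters that quiescent stellate cells store, and Reln, reelin, did not pass (0.69 ± 1.14 and -0.11 ± 1.13, limma adjusted p = 0.808 and 0.976).

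Over a check list of 8 stellate cell markers (Acta2, Des, Lrat, Reln, Pdgfrb, Col1a1, Col3a1 and Dcn), the summed signal was 2.16 to 10.8 times the 75th percentile on LN511, 18.1 to 30.6 times on Mat and 48.4 to 81.5 times on LN111. On all LN511 arrays 7 of the 8 were well above background, and Dcn on 2 of the 3, while all 8 were on all Mat arrays. The part of such cells in the lower matrix and contractile genes was not tested. A check list of 4 mesothelial markers (Msln, Wt1, Gpm6a and Lrrn4) summed to 8.23 to 30.2 on LN511 and 6.81 to 19.7 on Mat. All 4 were well above background on all Mat arrays, but Wt1 was on 1 LN511 array and Gpm6a on 2. Wt1 stood at -4.28, -8.11 and -6.00 on LN511 and at -3.59, -5.36 and -3.37 on Mat. In a longer list of mesothelial markers, 0 of 9 tested passed (median 0.16).

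The regulators of mesenchymal and developmental programmes that were lower include Twist1, a transcription factor of mesenchymal cells, at -4.04, -7.77 and -5.90 on LN511 and -1.29, -2.98 and -1.29 on Mat (-4.05 ± 0.91, limma adjusted p = 0.0342). Wnt5a, a ligand of non-canonical Wnt signalling, stood at -5.26, -6.49 and -7.49 on LN511 and at -2.46, -3.89 and -2.37 on Mat (-3.50 ± 0.68, limma adjusted p = 0.019). Both were well above background on only 1 of the LN511 arrays, and the groups did not overlap. Runx2, a transcription factor of bone-forming cells, was well above background on 0 LN511 arrays. In the list of 17 epithelial-mesenchymal regulators, Twist1 was the 1 lower gene, 0 were higher, and the median was 0.28. Vim, vimentin, differed by 0.05 ± 0.40 (limma adjusted p = 0.967).

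Of 29 matrix proteases and inhibitors, 3 were lower and 0 higher (median -0.25). Mmp2, the gelatinase that cleaves collagen IV, stood at 1.57, 0.02 and 0.39 on LN511 and at 3.20, 2.27 and 3.11 on Mat (-2.20 ± 0.47, limma adjusted p = 0.0283). Mmp23 fell by 1.96 (limma adjusted p = 0.0207) and the serine protease Htra1 by 1.43 (limma adjusted p = 0.0453). Itga11, the collagen-binding integrin alpha-11, was at least 2.74-fold lower (limma adjusted p = 0.0127) and was the 1 lower gene of 13 receptors for RGD ligands, collagen and fibronectin, of which 0 were higher (median -0.43).

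These counts moved with single arrays: the 11 lower matrix genes became 2 without Mat replicate 1, 3 without Mat replicate 3, 4 without LN511 replicate 3 and 5 without LN511 replicate 2, and they were 2 with Mat replicates 1 and 3 averaged, 18 with the replicate block and 0 with the slide block. The 5 lower stellate cell and fibroblast genes became 0 without Mat replicate 1 or LN511 replicate 3, 1 without Mat replicate 3 or LN511 replicate 2 or with the pair averaged, and 3 without Mat replicate 2, and the 3 lower proteases became 0 without Mat replicate 1 or 3 or LN511 replicate 2 or 3. The list medians stayed below 0 with no scaling (-3.06 for the matrix list and -3.12 for the stellate cell and fibroblast list), quantile scaling (-2.14 for both) and normexp (-1.31 and -1.49), and against Mat replicate 3 they were -2.16 and -2.12.

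LN511 against LN111, which shares the LN511 arrays with this comparison, had 3200 genes past the threshold (17.9%), 11.7% higher and 6.13% lower. The 207 genes lower against Mat had a median of -1.68 against Mat and of -2.50 against LN111, and the 1265 higher genes medians of 1.38 and 1.27. Col1a1 averaged 5.44 on LN111, Col3a1 3.15, Acta2 -0.07 and Twist1 -0.46. Each of these means lay above the Mat mean of that gene. Between LN111 and Mat themselves, 0 genes passed in limma, and 2181 genes (12.2%) had an unadjusted p under 0.05 there, against 3905 (21.8%) for LN511 against Mat.

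Immediate-early genes are transcribed within minutes of a stimulus without new protein synthesis, and many of them code for the transcription factors of the AP-1 and EGR families. Of 35 such genes tested, 13 were higher on LN511 and 0 lower, with a list median of 0.77, which was -0.33 without scaling, where all genes had a median of -0.98. Of the 13, Btg2, Egr1, Zfp36 and Csrnp1 were above 0 without scaling and the others below. Btg2, an antiproliferative cofactor of transcription and mRNA decay, stood at 2.84, 3.18 and 3.32 on LN511 and at 1.83, 1.68 and 1.87 on Mat (1.32 ± 0.15, limma adjusted p = 0.00273). Ier2, a nuclear immediate-early protein, stood at 3.26, 3.76 and 3.53 on LN511 and at 2.52, 2.63 and 2.41 on Mat (1.00 ± 0.16, limma adjusted p = 0.0093). For both genes each LN511 array was above each Mat array, and the unscaled difference of Ier2 was -0.10.

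Among the AP-1 subunits, Jun stood at 3.24, 3.58 and 3.81 on LN511 and at 2.38, 2.73 and 2.42 on Mat (1.03 ± 0.21, limma adjusted p = 0.0232). Fosb was higher by 0.98 ± 0.19 (limma adjusted p = 0.0207), Fosl2 by 1.08 ± 0.23 (limma adjusted p = 0.027) and Maff, a small Maf partner of bZIP factors, by 0.93 ± 0.12 (limma adjusted p = 0.00435; unscaled -0.17). Fos itself stood at -0.38, 0.53 and 0.31 on LN511 and at -0.29, -0.29 and -0.36 on Mat. The lowest LN511 array was below all Mat arrays, and the gene did not pass (0.46 ± 0.23, limma adjusted p = 0.302). Atf3, Jund and Junb were separated without overlap but did not pass (1.44, 1.11 and 1.00, limma adjusted p = 0.0729, 0.077 and 0.0906). With the replicate block all 3 passed (limma adjusted p = 0.0204, 0.0218 and 0.0359).

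Egr1, a zinc finger factor of the growth factor response, stood at 1.03, 1.75 and 1.38 on LN511 and at -0.14, -0.61 and -0.11 on Mat (1.67 ± 0.32, limma adjusted p = 0.0184). Klf6, a Krüppel-like factor, was higher by 0.92 ± 0.13 (limma adjusted p = 0.00619), with an unscaled difference of -0.18. The mRNA decay factors Zfp36 (1.14, limma adjusted p = 0.0269) and Zfp36l1 (0.97, limma adjusted p = 0.0315) were higher, as were Rhob, a small GTPase of endosomes (0.76, limma adjusted p = 0.031), Ier5 (0.56, limma adjusted p = 0.0398) and Csrnp1 (1.19, limma adjusted p = 0.047). Myc differed by 0.34 ± 0.18 (limma adjusted p = 0.329) and Nr4a1 by 0.37 ± 0.45 (limma adjusted p = 0.719).

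Short stretches of the promoters of the higher immediate-early genes are shown because they hold the binding motifs that this gene class is known for. The CArG box is the motif of serum response factor, and TGACGTCA is the cAMP response element (CRE). RefSeq promoters (GRCr8, 250 bases before to 50 after the start, searched on both strands) were found for 11 of the 13 higher genes. The capitals mark the motif.
Egr1, CArG box, chr18:26736963-26736992, plus strand: gtcggtccttCCATATTAGGgcttcctgct
Egr1, CArG box, chr18:26736985-26737014, plus strand: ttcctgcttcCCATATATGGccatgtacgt
Klf6, CArG box, chr17:69458660-69458689, minus strand: aataggaaggCCTTTAATGGagaggctcgg
Zfp36, CArG box, chr1:92799121-92799150, minus strand: ccgggccgccCCATAAAAGGcgaaagctcc
Btg2, CRE, chr13:48087873-48087902, minus strand: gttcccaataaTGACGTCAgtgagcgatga
Ier2, CRE, chr19:40399296-40399325, plus strand: tggcgtttcagTGACGTCActcttactcta
Maff, CRE, chr7:112792725-112792754, plus strand: cgctggggcggTGACGTCActgcatgactg
All 7 stretches lie upstream of the start. A CArG box was found in 3 of the 11 higher genes, in 5 of the 26 immediate-early genes with a promoter in the table and in 1.64% of all 27457 promoters. The CRE was found in 3 of 11, 4 of 26 and 1.91% in the same order. A match is a match of letters and not a measured binding site.

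Phosphatases that remove phosphate from MAP kinases, and so limit the pathway that induces immediate-early genes, included 4 higher genes. Dusp1 stood at 0.90, 1.32 and 1.27 on LN511 and at -0.41, 0.10 and -0.40 on Mat (1.40 ± 0.18, limma adjusted p = 0.00393). Dusp8 stood at 0.19, -0.09 and 0.49 on LN511 and at -1.58, -1.21 and -1.51 on Mat (1.63 ± 0.24, limma adjusted p = 0.00627). In both, the lowest LN511 array was above the highest Mat array. Dusp10 was higher by 1.27 ± 0.26 (limma adjusted p = 0.0246) and Dusp5, a nuclear phosphatase of ERK, by 0.84 ± 0.18 (limma adjusted p = 0.0277; unscaled -0.26). The list of 18 MAP kinase feedback inhibitors had 0 lower members and a median of 0.15, near that of all genes.

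Of 14 EGF family ligands and ERBB and MET receptors, 4 ligands were higher and 0 genes lower (median 0.60, -0.49 without scaling). Hbegf, the heparin-binding ligand of the EGF receptor, stood at -0.55, 0.17 and -0.70 on LN511 and at -2.0, -1.59 and -1.68 on Mat (1.40 ± 0.31, limma adjusted p = 0.0338). Epgn, epigen, was well above background on all LN511 arrays and on 0 Mat arrays, and was at least 4.17-fold higher (limma adjusted p = 0.00608). Egf (1.16 ± 0.19, limma adjusted p = 0.0102) and Nrg4, a ligand of ERBB4 (1.63 ± 0.34, limma adjusted p = 0.027), were dim, with all 6 values between -6.75 and -4.51 for Nrg4. Areg, amphiregulin, stood at -0.69, 1.61 and 0.75 on LN511 and at -1.80, 0.41 and -1.77 on Mat, so replicate 2 was highest on both coatings and the groups overlapped. It did not pass (1.61 ± 0.95, limma adjusted p = 0.389), and with the replicate block it did (limma adjusted p = 0.0293). Of the receptors, Egfr differed by 0.44 ± 0.19 (limma adjusted p = 0.224), Erbb2 by -0.08 ± 0.18 (0.873) and Met, the receptor of hepatocyte growth factor, by 0.11 ± 0.31 (0.895).

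Interferon-stimulated genes had 6 higher members and 0 lower of 19 tested, at a list median of 0.06, below that of all genes. Rsad2, viperin, stood at 1.03, 2.10 and 2.07 on LN511 and at -0.05, 0.20 and -0.24 on Mat (1.76 ± 0.32, limma adjusted p = 0.0153). Mx2, an antiviral GTPase, stood at 4.35, 4.38 and 4.05 on LN511 and at 2.44, 2.52 and 2.33 on Mat (1.83 ± 0.36, limma adjusted p = 0.0196). The arrays of the 2 coatings were separated for both genes. Isg15, a ubiquitin-like protein (1.16, limma adjusted p = 0.0232), Mx1 (1.05, limma adjusted p = 0.0239; unscaled -0.05), Ifih1, the RNA sensor MDA5 (0.58, limma adjusted p = 0.043), and Oas1b (0.69, limma adjusted p = 0.0447) were the others, and Mx1, Ifih1 and Oas1b were below 0 without scaling. The signal transducer Stat2 differed by 0.00 ± 0.13 (limma adjusted p = 0.995), and the transcription factor Irf7 by 0.55 ± 0.22 (limma adjusted p = 0.191).

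**Figure D2:**
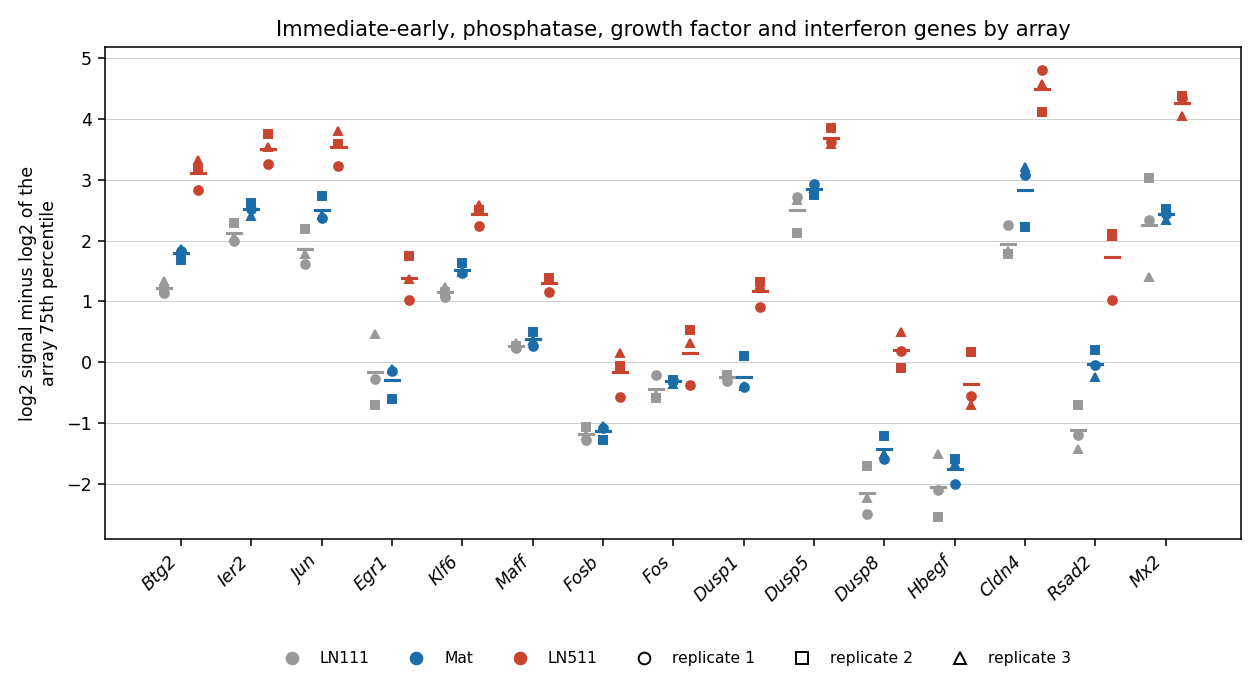
Level of 15 immediate-early, phosphatase, growth factor, junction and interferon genes on each array (log2 signal minus the log2 75th percentile of that array); symbols are replicates, colours are coatings and bars are means of 3 arrays. For all genes but Fos the LN511 points lie above the Mat points, and without scaling the differences of Ier2, Jun, Klf6, Maff, Fosb, Fos and Dusp5 were below 0.

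The counts of these lists also moved with single arrays. The 13 higher immediate-early genes became 4 without Mat replicate 1, without LN511 replicate 3 and with Mat replicates 1 and 3 averaged, 5 without Mat replicate 3 or LN511 replicate 2, 6 without Mat replicate 2, 16 with the replicate block and 0 with the slide block. The 6 interferon-stimulated genes became 0 without Mat replicate 1 or 3 or LN511 replicate 2 and 0 with the pair averaged, and 1 without LN511 replicate 1 or 3 or Mat replicate 2. The 4 phosphatases and the 4 ligands became 2 without any 1 of the LN511 arrays and without Mat replicate 1 or 2. Against LN111, with the LN511 arrays shared, 22 of the 35 immediate-early genes were higher (11.7% of all genes), and their median was 1.02.

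The receptors for laminin gave no call. Of 12 tested, 0 passed in either direction (median 0.05). Itgb1, the common beta-1 integrin chain, stood at 3.27, 3.49 and 3.25 on LN511 and at 3.40, 3.57 and 3.31 on Mat (-0.09 ± 0.14, limma adjusted p = 0.786). Its alpha partners Itga3 and Itga6 differed by 0.46 ± 0.46 and 0.40 ± 0.39 (limma adjusted p = 0.651 and 0.636). Itgb4, the beta-4 chain of hemidesmosomes, stood at 2.67, 4.06 and 3.03 on LN511 and at 1.88, 3.32 and 1.84 on Mat. Replicate 2 was highest on both coatings, so the groups overlapped, and the gene did not pass (0.91 ± 0.67, limma adjusted p = 0.505), although it did with the replicate block (limma adjusted p = 0.035). Dag1, dystroglycan, differed by 0.03 ± 0.13 (limma adjusted p = 0.925) and Bcam, the alpha-5 receptor, by 0.91 ± 0.86 (limma adjusted p = 0.625). Itga1, the alpha-1 chain that also binds collagen, was lower on all 3 arrays and did not pass (-2.0 ± 0.55, limma adjusted p = 0.0693), but did with the replicate block (limma adjusted p = 0.0142).

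Of the cells' own laminin chains, 0 of 7 tested passed (median 0.19). Lamb1, the beta-1 chain, whose other probe differed by 0.31, stood at 0.67, 0.89 and 0.33 on LN511 and at 1.47, 1.62 and 1.47 on Mat, without overlap, at -0.89 ± 0.23 (limma adjusted p = 0.0566). Lama5 and Lamc1 differed by 0.24 ± 0.39 and 0.08 ± 0.23 (limma adjusted p = 0.797 and 0.906). Lamb3, the beta-3 chain, differed by 1.28 ± 0.79 (limma adjusted p = 0.409), and its limma adjusted p was 0.0485 with the replicate block.

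Among progenitor and biliary markers, 3 of 31 were higher and 0 lower (median 0.48), a share near the 7.07% of all genes that were higher. Cldn4, a tight junction claudin, stood at 4.81, 4.13 and 4.57 on LN511 and at 3.08, 2.23 and 3.21 on Mat (1.66 ± 0.30, limma adjusted p = 0.0143). Sox4, a progenitor transcription factor, stood at 2.46, 2.27 and 2.58 on LN511 and at 1.82, 1.76 and 1.65 on Mat (0.70 ± 0.15, limma adjusted p = 0.0276; unscaled -0.40). Dlk1, a surface marker of hepatoblasts, stood at -3.37, -3.19 and -4.17 on LN511 and at -6.78, -5.36 and -6.17 on Mat (2.52 ± 0.62, limma adjusted p = 0.0467). The groups overlapped for none of the 3, and the count of 3 became 0 without LN511 replicate 1 or 3 and 1 without any 1 Mat array or with Mat replicates 1 and 3 averaged. Epcam (0.60 ± 0.33, limma adjusted p = 0.353), Sox9 (0.67 ± 0.39, limma adjusted p = 0.385) and Krt19 (0.48 ± 0.93, limma adjusted p = 0.84) did not pass, and neither did the sort marker Cd44 (-0.18 ± 0.16, limma adjusted p = 0.597). For Sox9 the groups did not overlap, and its other probes differed by 0.86, 1.00 and 1.62. The probe at 1.00 passed in the fit over single probes (limma adjusted p = 0.0105), with an unscaled difference of -0.10. That probe holds a run of GCA, a class of probes described below. Of its 10 probes, for different genes, 7 were higher, with a median of 0.99, so this call may not be particular to Sox9. Afp, the fetal albumin-like protein, stood at 7.20, 3.52 and 6.79 on LN511 and at 6.23, 3.78 and 6.40 on Mat, with replicate 2 far below on both coatings (0.37 ± 1.21, limma adjusted p = 0.913).

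Krt18, a keratin of simple epithelia, was the 1 higher gene of 9 keratins (median 0.48), at 7.35, 7.08 and 7.31 on LN511 and 6.29, 6.15 and 6.64 on Mat (0.89 ± 0.18, limma adjusted p = 0.0249), with an unscaled difference of -0.21 and a difference of 0.44 on its other probe. Pard6b, a cell polarity protein (1.12 ± 0.21, limma adjusted p = 0.0182), and Cldn4 were the 2 higher of 29 epithelial junction genes, with 0 lower (median 0.45). That share is near the 7.07% of all genes that were higher, beside which the other counts of this paragraph also stand. Of 11 hemidesmosome and desmosome genes 0 passed (median 0.44). Fermt3, the kindlin of blood cells, was the 1 higher of 31 focal adhesion adaptors and kinases, with 0 lower (1.83 ± 0.41, limma adjusted p = 0.0326, list median 0.09).

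The hepatocyte programme gave few calls. Alb, albumin, stood at 6.53, 6.12 and 6.48 on LN511 and at 5.53, 5.29 and 5.87 on Mat (0.82 ± 0.20, limma adjusted p = 0.047), with an unscaled difference of -0.28 and a difference of 0.26 on its other probe. It was the 1 higher gene, with 0 lower, both of 50 secreted plasma proteins (median -0.29, and -1.28 against Mat replicate 3) and of 16 mature hepatocyte markers (median -0.31). Hnf4a, the nuclear receptor of hepatocyte identity, stood at 1.29, 0.55 and 1.5 on LN511 and at 2.11, 2.87 and 1.93 on Mat, without overlap, and did not pass (-1.19 ± 0.40, limma adjusted p = 0.119). Its other 2 probes differed by -0.27 and 0.71, so the probes disagree. Of 20 hepatocyte transcription factors and 24 P450 and phase II enzymes, 0 passed in each (medians -0.01 and -0.39). Gpt, alanine aminotransferase, was the 1 higher of 32 urea cycle and amino acid genes (0.56, limma adjusted p = 0.0432, list median -0.21; unscaled -0.54). None passed among 25 genes of fatty acid oxidation (median 0.05), 17 of bile acid handling (0.08), 14 of gluconeogenesis and glycogen (-0.04), 24 of fatty acid synthesis (-0.09) and 25 of cholesterol synthesis (0.18).

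None of 28 DNA replication genes, 32 mitosis genes and 20 G1 cyclins and inhibitors passed (medians -0.15, -0.30 and 0.05), and Mki67, the proliferation marker, stood at -1.39, -1.70 and -2.21 on LN511 and at -1.87, -1.30 and -2.12 on Mat, with overlap, and its other probes differed by -0.38, 0.17 and 0.21. Ccn2, a YAP target that also responds to adhesion, differed by 0.67 ± 0.30 (limma adjusted p = 0.239), and in the list of 20 YAP and TEAD targets 1 gene, Ptpn14, was lower (-0.52, limma adjusted p = 0.0353) and 0 higher (median 0.05), but the other probe of Ptpn14 differed by 0.02. The TGF-beta and BMP list of 32 held 1 higher gene, Smurf1 (0.52, limma adjusted p = 0.0466, and 0.057 with the replicate block; unscaled -0.58), and 1 lower, the latent TGF-beta binding protein Ltbp1 (-1.31, limma adjusted p = 0.0281, median 0.13). The Notch and Wnt list of 23 held the Notch target Hes1 as higher (1.08, limma adjusted p = 0.0436; unscaled -0.02) and Wnt5a and the Wnt modulator Dkk3 as lower (Dkk3 -1.50, other probe -0.66, limma adjusted p = 0.0185, list median 0.16). Over all genes 7.07% were higher and 1.16% lower.

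In the stress lists, Ppp1r15a, the GADD34 subunit that restores translation, was the 1 higher of 32 unfolded protein response genes (1.27 ± 0.25, limma adjusted p = 0.0194, median -0.01). The small heat shock gene Hspb8 was the 1 higher of 18 (0.92, limma adjusted p = 0.0129, median 0.04; unscaled -0.18). Btg2 and the kinase Plk3 (1.45 ± 0.26, limma adjusted p = 0.0134) were the 2 higher of 26 p53 targets and apoptosis genes (median 0.08). Lif, an interleukin-6 family cytokine, was the 1 higher of 37 NF-kB and inflammatory genes (1.64 ± 0.35, limma adjusted p = 0.0274, median 0.25). In none of these 4 lists was a gene lower, and 7.07% of all genes were higher. None passed of 32 NRF2 targets (median -0.02), 31 genes of glycolysis and hypoxia (0.01), 38 oxidative phosphorylation subunits (0.02), 32 proteasome subunits (0.02) and 40 ribosomal proteins (0.20).

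Markers of blood and endothelial cells were dim. The counts of this paragraph stand beside 7.07% higher and 1.16% lower over all genes. For genes with a mean level below -4 these shares were 15.8% and 1.77%. Itgam, the integrin CD11b, was the 1 higher of 11 Kupffer cell and macrophage markers tested (2.31 ± 0.49, limma adjusted p = 0.0283, list median 1.30, 0 lower). Over 8 Kupffer cell markers the summed signal was 0.324 to 1.51 times the 75th percentile on LN511 and 0.164 to 0.194 on Mat. LN511 replicate 1 stood apart: over 20 listed markers its sum was 8.74, against 1.20 and 1.58 on LN511 replicates 2 and 3 and 1.15 to 1.71 on Mat, and C1q subunit C1qa stood at -0.77 on it against -7.63 and -4.34. The call of Itgam was kept without LN511 replicate 1 and lost without LN511 replicate 2, without any 1 Mat array and with Mat replicates 1 and 3 averaged. Markers Cd5l and Marco were well above background on 0 arrays of either group, while Cd68 and Csf1r were on all arrays of both. Cdh5, VE-cadherin, was the 1 higher of 11 endothelial markers with 0 lower (0.94 ± 0.21, limma adjusted p = 0.0297, list median -0.41; unscaled -0.15). Cdh5 and Kdr were well above background on all arrays of both groups, and Lyve1 and Pecam1 on 0. Of 5 lymphocyte and neutrophil markers tested, Nkg7 was at least 3.92-fold higher (limma adjusted p = 0.00176) and Gzmb at least 3.02-fold lower (limma adjusted p = 0.0389), at a list median of 0.08. Cd3e, Cd79a and Ms4a1, which define T and B cells, were well above background on 0 arrays. S100a8 was well above background on 2 LN511 and 3 Mat arrays. It stood at -0.73 on LN511 replicate 1, -7.81 and -4.26 on LN511 replicates 2 and 3, and -3.84, -5.50 and -3.69 on Mat. The part of blood cells in the calls was not tested.

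**Figure D3:**
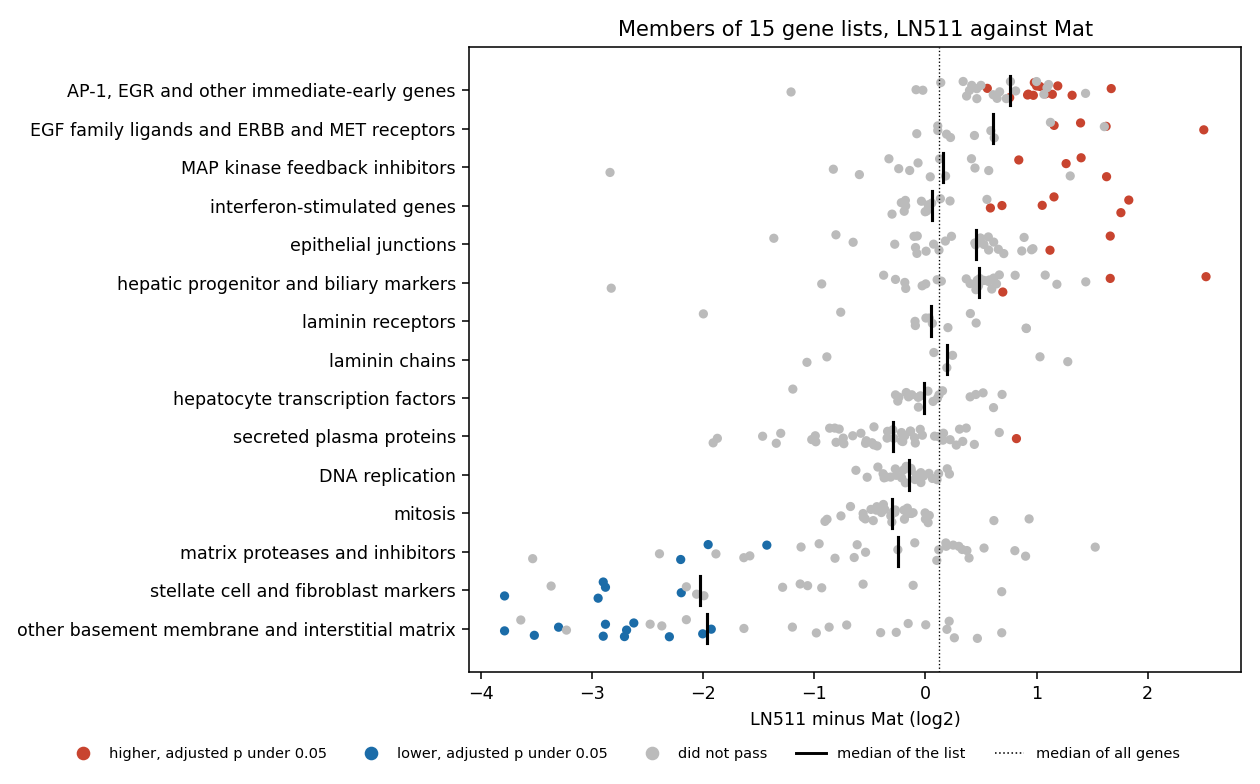
Log2 difference (LN511 minus Mat) of each tested member of 15 gene lists; each point is a gene, colour marks an adjusted p under 0.05, black bars are list medians and the dotted line is the median of all genes, 0.12. The matrix and the stellate cell and fibroblast lists lie lowest, with medians of -1.97 and -2.03, and the immediate-early list highest of the 15 drawn, with a median of 0.77, which was -0.33 without scaling. The Kupffer cell and macrophage list, with a median of 1.30, is not drawn.

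The 15 largest increases among genes with a symbol, chosen by the naming rule, belonged to none of the lists above. They were Abca12, a lipid transporter of skin, Pcsk1, a prohormone convertase, Apcdd1l, the vomeronasal receptor Vom2r70, the olfactory receptor Or10al7, Arid3a, Lilrb3l, the taste receptor Tas2r120, Vom2r67, Ammecr1, Uncx, Naip5, Kif19, Fanca and Clxn. Abca12 stood at 3.18, 3.06 and 2.44 on LN511 and at -1.34, -0.95 and -1.10 on Mat (4.02 ± 0.54, limma adjusted p = 0.00454). Clxn, the last of the 15, stood at -1.0, -1.22 and -1.83 on LN511 and at -5.11, -4.74 and -4.41 on Mat (3.40 ± 0.29, limma adjusted p = 0.00175). The groups were far apart for both. Vom2r70, Vom2r67, Lilrb3l and Fanca were well above background on 0 Mat arrays and were at least 4.93-fold, 3.94-fold, 3.12-fold and 2.41-fold higher.

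The probe sequences of 4 of these 15 genes (Abca12, Apcdd1l, Arid3a and Ammecr1) hold a run of alternating guanine and adenine, a simple repeat. Stretches of probes with this run, with its cytosine-adenine counterpart and with the complementary runs are shown because probes for unrelated genes that share a run also shared their difference. Each is 30 bases of a probe of 60, and the capitals mark the run or the shared stretch.
Abca12, guanine-adenine run: gctttgtaccGAGAGAGAGAGAGAGAGAGA
Apcdd1l, guanine-adenine run: tattatccGAGAGAGAGAGAGAGAGAGAGA
Aig1, guanine-adenine run: taaagtatggaaAGAGAGAGAGAGAGAGAG
Ptprn2, cytosine-adenine run: ttcatcatACACACACACACACACACACAC
Nek8, cytosine-adenine run: tatataatACACACACACACACACACACAC
Rassf2, cytosine-adenine run: acagtctaACACACACACACACACACACAC
Prlhr, thymine-cytosine run: tctttcctTCTCTCTCTCTCTCTCTCTCTC
Acbd4, thymine-guanine run: atctggacTGTGTGTGTGTGTGTGTGTGTG
Stx4, start of an ID element: cctagcatGGGGTTGGGGATTTAGCTCAGt
Dgkb, start of an ID element: aaggtataaGGGGTTGGGGATTTAGCTCAG
The array files place the Abca12 probe at chr9:70327442-70327501 (minus strand), the Ptprn2 probe at chr6:144548969-144549028 (plus strand) and the Stx4 probe at chr1:187133493-187133552 (plus strand) of rn4, and assign each to the transcript of the gene named. An exon or UTR was not assigned here.

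These classes of probes were chosen after their values were seen, so they are described without a test of the class. Over all 22331 probes that could be used, 8.01% passed, 6.87% were higher on LN511 and 1.13% lower, with a median of 0.13. Of 15 probes with a guanine-adenine run of at least 12 letters, 14 were higher, with a median of 3.79 and an interquartile range of 3.24 to 3.87. The median level of these probes was 3.38, 3.12 and 2.62 on the LN511 arrays, -0.94, -0.51 and -0.80 on the Mat arrays, -1.89, -0.21 and -1.78 on LN111 and 1.47, 0.89 and 1.11 on the MH arrays. The LN511 arrays were thus above all the others. Of 38 probes with a cytosine-adenine run, 36 were higher, with a median of 2.28 and an interquartile range of 2.18 to 2.33. Ptprn2, a phosphatase-like protein of secretory granules, differed by 2.24, the kinase Nek8 by 2.19 and Rassf2, a Ras-binding protein, by 2.20. The genes named are thus of different functions, and their probes differ outside the run.

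The complementary runs did not share this. Of 15 probes with a thymine-cytosine run 0 passed (median -0.11), and of 59 with a thymine-guanine run 0 passed (median -0.42), with the 3 LN511 arrays below the 3 Mat arrays for 37 of the 59. Without scaling the guanine-adenine and cytosine-adenine medians were 2.69 and 1.18, and 13 and 34 probes were higher. With Mat replicates 1 and 3 averaged, 13 and 34 probes were higher, and with the slide block 0 were, as in every class described here. Other probes on the array for the same genes differed: the 48 genes with a higher probe of either run had 15 further usable probes in 12 genes, of which 0 were higher and 1 was lower, with differences from -1.05 to 0.99 and a median of 0.10. The lowest differences of the guanine-adenine class were -0.29 for the placeholder LOC102551133 and 0.86 for Leng8, and in the cytosine-adenine class Col5a2, a chain of collagen V, differed by -1.20. The probe of LOC102551133 also holds a thymine-guanine run and is counted in that class too.

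Of 11 probes with a run of GGA, 8 were higher (median 1.72, 0.63 without scaling). Of 10 with a run of GCA, 7 were higher (median 0.99), and without scaling the median was -0.11 with 0 higher. Of 17 with a run of AAG, 2 were higher (median 1.16, and 0.07 without scaling with 0 higher). These 2, the probes of Pigr and Kcng1, also hold a run of GGA and are among the 8 higher probes of that class. The AAG medians by array were 1.37, 0.35 and 0.29 on LN511 and -0.01, -1.56 and 0.37 on Mat, with Mat replicate 2 lowest, and against Mat replicate 3 the median difference was 0.32. Of 8 probes with the letters GGGGATTTAGCTCAG, which lie within the start of the ID element, a short interspersed repeat of the rat genome, 7 were higher (median 1.12, and 0.02 without scaling with 0 higher). With Mat replicates 1 and 3 averaged 0 of these 8 were higher.

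Among the probes with the largest increases were those of uncharacterized non-coding RNAs with placeholder names. Of 7 probes that hold the letters TTAGTGCAGAGG, 6 were higher, with a measured median of 4.77 (3.67 without scaling). On the Mat arrays, 3 of the 7 were well above background on all arrays and 3 on none, so the median is no exact size. The 3 probes below show the shared letters, in capitals, within otherwise related sequences.
LOC103690649: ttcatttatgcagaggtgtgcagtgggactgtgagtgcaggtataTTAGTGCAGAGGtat
LOC103690652: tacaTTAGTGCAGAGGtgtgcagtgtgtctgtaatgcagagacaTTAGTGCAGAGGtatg
LOC103690684: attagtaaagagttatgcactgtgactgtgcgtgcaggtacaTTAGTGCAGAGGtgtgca
LOC103690649, well above background on all 6 arrays, differed by 4.61, while LOC103690652 and LOC103690684 were well above background on all LN511 arrays but on 1 and 0 Mat arrays. Over the 7 probes the median level was -1.87, -1.82 and -1.72 on LN511 and -7.16, -5.15 and -7.62 on Mat, where several of the values lie at background. The exception was the probe of Fndc3a, which differed by -0.11.

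**Figure D4:**
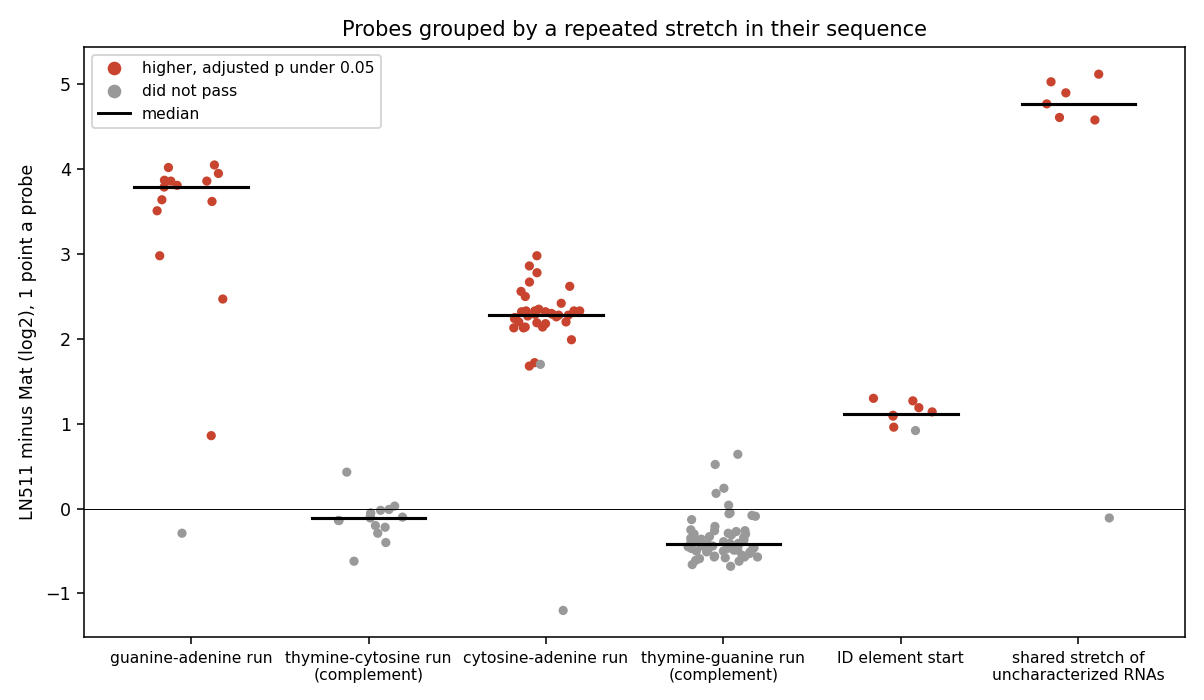
Log2 difference (LN511 minus Mat) of each usable probe, grouped by a repeated stretch in its sequence; each point is a probe, red marks an adjusted p under 0.05 and black bars are medians. Guanine-adenine and cytosine-adenine runs have medians of 3.79 and 2.28, and their complements -0.11 and -0.42.

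Gene families of other tissues were also among the higher genes, and these too were chosen after their values were seen. Against 7.07% of all genes, 11 of 17 vomeronasal receptors tested were higher, and 14 of 47 olfactory receptors, with 1 lower. The same held for 10 of 15 genes described as spindlin-like or Y-linked testis-specific and for 6 of 7 spermatogenesis-associated glutamate-rich genes. The medians of these families were in turn 1.07, 0.78, 3.33 and 2.95, against 0.12 over all genes. Those of the vomeronasal and olfactory receptors are under 1.10 and so lie below 0 without scaling. A usable probe of Vom2r18 holds a cytosine-adenine run (2.35). In the order given, 5, 4, 9 and 5 of the genes tested were well above background on 0 Mat arrays. Genes that entered the test through LN511 alone had to differ, so these counts are a description. Many members of these families are near-identical copies, so a probe may not tell them apart. The 1026 genes described as uncharacterized non-coding RNA held 296 higher and 11 lower ones, and 93 were well above background on 0 Mat arrays.

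The higher calls were spread unevenly over the range of levels. Of 4417 genes with a mean level below -4, 15.8% were higher and 1.77% lower, and of 3025 genes with a mean level of 0 to 2, 2.94% were higher and 0.826% lower. Genes with a placeholder name were higher in 14.5% of cases (824 of 5678) and genes with a symbol in 3.61% (441 of 12221), while the lower calls ran the other way, with 0.81% and 1.32%. Well above background on all 3 LN511 arrays and on 0 Mat arrays were 232 genes, of which 222 were higher, and on all 3 Mat arrays and 0 LN511 arrays 244 genes, of which 61 were lower. Such genes had to differ in detection by the way they were chosen, so these counts are a description.

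**Figure D5:**
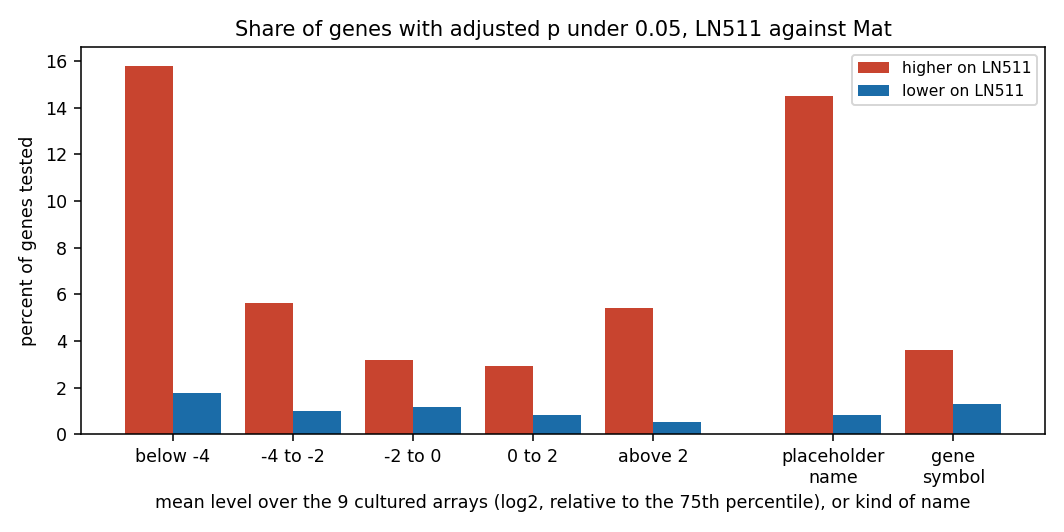
Percent of genes tested with an adjusted p under 0.05 that were higher or lower on LN511, by mean level over the 9 cultured arrays (log2, relative to the 75th percentile) and by kind of name. The share of higher genes is 15.8% in the dimmest class and 2.94% in the class from 0 to 2, and it is 14.5% for placeholder names and 3.61% for gene symbols.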

How the data were processed

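Per the labels' protocols, 100 ng of RNA per array was labelled with Cy3. The authors deposited scanner files whose processed signal is a linear intensity, background-subtracted and detrended per the file headers, read with Agilent Feature Extraction 10.7 per the submitters' processing notes; dim spots carry surrogate values. The deposited value table holds the same intensity to within 0.0072 on the log2 scale, unscaled.

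From it the log2 minus each array's 75th percentile was computed without control and outlier spots (45489 probes kept, 109 lost). Genes entered the test where at least 1 probe exceeded background on the 3 arrays of some cultured coating; the brightest probe represented its gene. Names came from the RefSeq GRCr8 table for 29318 of 45598 probes and from the file for 16280. The 9 cultured arrays entered 1 limma 3.58.1 fit (R 4.3.3; lmFit, eBayes, Benjamini-Hochberg, 0.05). "At least N-fold" sets the brighter group's mean against the dim group's background. On simulated data for this comparison, over 17899 genes, the fit recovered 35% of simulated 2-fold and 81.2% of 4-fold differences, with 4.99% false calls. The simulated noise was independent between arrays, at the fit's own spread. It held no shared replicate deviation, no slide and no near-identical pair, so these figures are not error rates of the real calls. Array number and signal over background limit the precision.

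Same-numbered LN511 and Mat arrays deviated together for replicates 1 and 2 but little for replicate 3 (correlations 0.59, 0.76 and 0.16). Differently numbered pairs reached 0.57 (LN511 replicate 1 with Mat replicate 3) and 0.22 (LN511 replicate 3 with Mat replicate 1). The replicate block is given where it changes a call. Members, the 46 gene lists and the naming rule (the 15 largest differences each way, past the threshold and without overlap between groups, 21 fixed genes and up to 4 members per list) were chosen with earlier results of these data known.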

Additional observations from a re-analysis of the deposited data

How the results depend on the processing

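The main counts were 1472 genes, 1265 higher and 207 lower. The total, higher and lower counts were 3550, 3387 and 163 with normexp. Normexp kept 1248 of the 1265 higher calls but only 92 of the 207 lower ones, and the sign turned for 40 genes. The counts were 10975, 446 and 10529 without scaling, 813, 701 and 112 with only genes above background on all 9 cultured arrays, 8103, 6141 and 1962 with array weights, 131, 121 and 10 with the slide as a block, 5, 5 and 0 within slide 2, 2639, 1989 and 650 with the replicate block in the 6 arrays alone, and 789, 732 and 57 with Mat replicates 1 and 3 averaged. The last 2 were chosen after seeing the data. Quantile scaling gave 756 higher and 384 lower (66.3% higher, against 85.9% in the main fit and 95.4% with normexp), and no filter gave 132 lower. The replicate block (pairing) gave 2386, of which 597 were lower. Leaving out 1 array gave 630 to 1727 genes, 581 to 1468 higher and 49 to 259 lower, lowest without Mat replicate 1 and highest without LN111 replicate 3. Without LN511 replicate 1, 2 or 3 the totals were 936, 729 and 779, and without Mat replicate 2 or 3 they were 993 and 858. Among the genes under the naming rule, the sign turned without scaling for Alb (-0.28), Actg1 (-0.16), Krt18 (-0.21), Maff (-0.17), Klf6 (-0.18), Ier2 (-0.10), Dusp5 (-0.26), Smurf1 (-0.58), Hes1 (-0.02), Mx1 (-0.05), Hspb8 (-0.18), Gpt (-0.54), Sox4 (-0.40) and Cdh5 (-0.15), and under normexp for Postn (0.10). Higher genes outside that rule with a difference under 1.10, among them Jun, Fosb and Tmsb10, also fell below 0 without scaling. The cause was not tested. Of the named genes, the calls of 48 were lost with the pair averaged and 75 with the slide block, and the replicate block ended 1 and added 31.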
